A study of Mus musculus with 14 samples.

Results

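Cornified envelope and squamous genes were followed in the epithelium of the mouse bladder and urethra before birth. The 10 genes were Ivl, Lor, Cnfn, Tgm1, Tgm3, Sbsn, Krtdap, Nccrp1, Padi1 and Sprr1a, chosen by symbol from the 55228 genes counted, and all 10 were found in both stage tables. They were picked with the difference between bladder and urethra at E18.5 already known, so their values in that comparison are a description and carry no test. RNA-seq counts came from untreated wild-type CD-1 females at embryonic days E14.5 and E18.5. There were 4 bladder and 4 urethral libraries at E14.5, and 3 bladder and 3 urethral libraries at E18.5. Each library held epithelium pooled from the females of a litter, after trypsin and removal of the mesenchyme with forceps, so a library stands for a litter and not for an animal. The extraction notes give 3 litters for each kind of sample, while 4 libraries are listed for each tissue at E14.5.

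The cornified envelope is a layer of crosslinked protein that forms under the membrane of a stratified squamous cell as it reaches the surface. Scaffold proteins such as involucrin, loricrin and the small proline-rich proteins are joined to each other by transglutaminases, while peptidylarginine deiminases convert arginine in keratins and envelope proteins to citrulline. The epidermis is the best studied case, and mucosal squamous epithelia such as oesophagus and vagina use overlapping sets of the same genes. The lining of the bladder is a urothelium, which covers its surface with uroplakin plaques and does not normally cornify.

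The promoters of several of these genes share short motifs. RefSeq gave the 250 bases before the start of 9 of the 10 genes, on GRCm38.p6. The AP-1 site of Fos and Jun proteins was searched on both strands in a wide form, TGANTCA, with any base at N. It was found in 5 of these 9 genes (Ivl, Lor, Sbsn, Krtdap and Sprr1a), against 7.82% of the 27025 genes with such a window. The match read TGAATCA in Sbsn and TGACTCA or TGAGTCA in the others. The share of all genes with these narrower forms was not counted. The TATA box motif TATAAA, read on both strands, was found in 5 of 9 (Ivl, Lor, Tgm3, Krtdap and Sprr1a), against 14.3%. The letters AACCNGTT of grainyhead factors were in 0 of 9 windows, against 2.0% of genes. The letters TTGCNNAA of C/EBP factors were in 2 of 9 (Tgm3 and Sbsn), against 10.8%, and CACCC, the core read by KLF factors, was in 8 of 9, against 54.5%. Motif matches are letters in a window and show no binding. The windows below, written from 5′ to 3′ on the strand of the gene with AP-1 and TATA matches in capitals, belong to 4 genes with both motifs and to Cnfn, which has neither.
Ivl, chr3:92573736-92573985, minus strand: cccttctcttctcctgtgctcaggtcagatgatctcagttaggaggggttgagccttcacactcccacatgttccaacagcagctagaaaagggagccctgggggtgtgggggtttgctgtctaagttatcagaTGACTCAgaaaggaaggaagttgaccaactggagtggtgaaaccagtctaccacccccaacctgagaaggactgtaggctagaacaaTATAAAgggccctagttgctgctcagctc
Sprr1a, chr3:92485882-92486131, minus strand: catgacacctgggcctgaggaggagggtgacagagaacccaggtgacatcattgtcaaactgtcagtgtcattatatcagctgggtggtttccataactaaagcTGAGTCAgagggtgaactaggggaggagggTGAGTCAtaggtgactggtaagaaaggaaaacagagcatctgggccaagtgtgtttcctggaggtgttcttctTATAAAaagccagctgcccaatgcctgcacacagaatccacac
Lor, chr3:92083143-92083392, minus strand: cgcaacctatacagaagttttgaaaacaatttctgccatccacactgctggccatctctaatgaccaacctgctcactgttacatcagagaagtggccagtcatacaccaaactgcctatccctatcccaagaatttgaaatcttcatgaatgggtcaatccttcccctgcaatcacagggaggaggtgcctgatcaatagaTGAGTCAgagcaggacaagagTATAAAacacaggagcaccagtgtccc
Krtdap, chr7:30787655-30787904, plus strand: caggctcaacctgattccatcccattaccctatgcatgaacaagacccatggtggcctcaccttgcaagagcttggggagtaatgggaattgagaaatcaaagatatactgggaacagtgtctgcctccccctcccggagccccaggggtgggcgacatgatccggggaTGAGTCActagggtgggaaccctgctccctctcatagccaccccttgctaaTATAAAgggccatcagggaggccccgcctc
Cnfn, chr7:25369725-25369974, minus strand: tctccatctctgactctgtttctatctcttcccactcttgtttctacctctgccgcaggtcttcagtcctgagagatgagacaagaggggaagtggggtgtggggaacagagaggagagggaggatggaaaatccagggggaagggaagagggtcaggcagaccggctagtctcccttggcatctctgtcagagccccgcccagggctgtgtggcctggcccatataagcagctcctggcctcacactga
The AP-1 match began 116 bases before the start in Ivl, 48 in Lor and 81 in Krtdap. Sprr1a held 2 matches, beginning 146 and 116 bases before the start. The TATA match began 29 bases before the start in Ivl, 43 in Sprr1a, 27 in Lor and 30 in Krtdap. Of the genes with both motifs, Ivl and Lor lay on opposite sides between the tissues, while Ivl and Sprr1a lay on the same side, as the values below show.

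Library totals ran from 21101269 to 36810672 counts. Values are CPM, counts scaled to a common effective library size. The 7 pan-epithelial genes, among them Epcam and Cdh1, were all detected in each group, with summed levels of 4014 to 4639 CPM in E14.5 bladder, 1656 to 3659 CPM in E14.5 urethra, 2651 to 3413 CPM in E18.5 bladder and 3573 to 4170 CPM in E18.5 urethra. All 15 mesenchyme markers were detected in each group too, with summed levels of 1187 to 4868, 3189 to 7074, 19970 to 30580 and 4792 to 5807 CPM in the same order. The superficial urothelial genes, uroplakins included, summed to 4296 to 8623, 273 to 2120, 8520 to 13060 and 2960 to 3399 CPM. In bulk libraries of this kind, fewer cells of a type and less RNA per cell cannot be told apart. Replicate 1 of the E14.5 urethra stood apart from the rest of its group. It held the highest value of 8 of the 10 genes, and also the highest pan-epithelial, basal and superficial urothelial sums (3659, 8137 and 2120 CPM), so results that rest on it are given with and without it. At E18.5 the urethral replicate 2 held the highest value of 8 of the 10.

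The 10 genes did not move as a block. Involucrin and Sprr1a were bladder genes at both stages, and at E14.5 they were 14.1-fold and 7.49-fold higher in bladder. Loricrin and Padi1 were urethral genes at both stages. Cnfn and Nccrp1 were near 0 at E14.5 and became urethral genes by E18.5, while Krtdap rose in both tissues and reached its highest mean in E18.5 bladder. From E14.5 to E18.5, 7 of the 10 genes rose in urethra, where 17.3% of all genes tested rose. In bladder 4 rose and Lor fell, where 19.9% of all genes rose and 20.4% fell. Cnfn and Nccrp1 passed the filter on low counts for these stage tests only through E18.5 libraries, so their rises were favoured in advance. The plot of all values by library shows these patterns gene by gene.

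**Figure D1:**
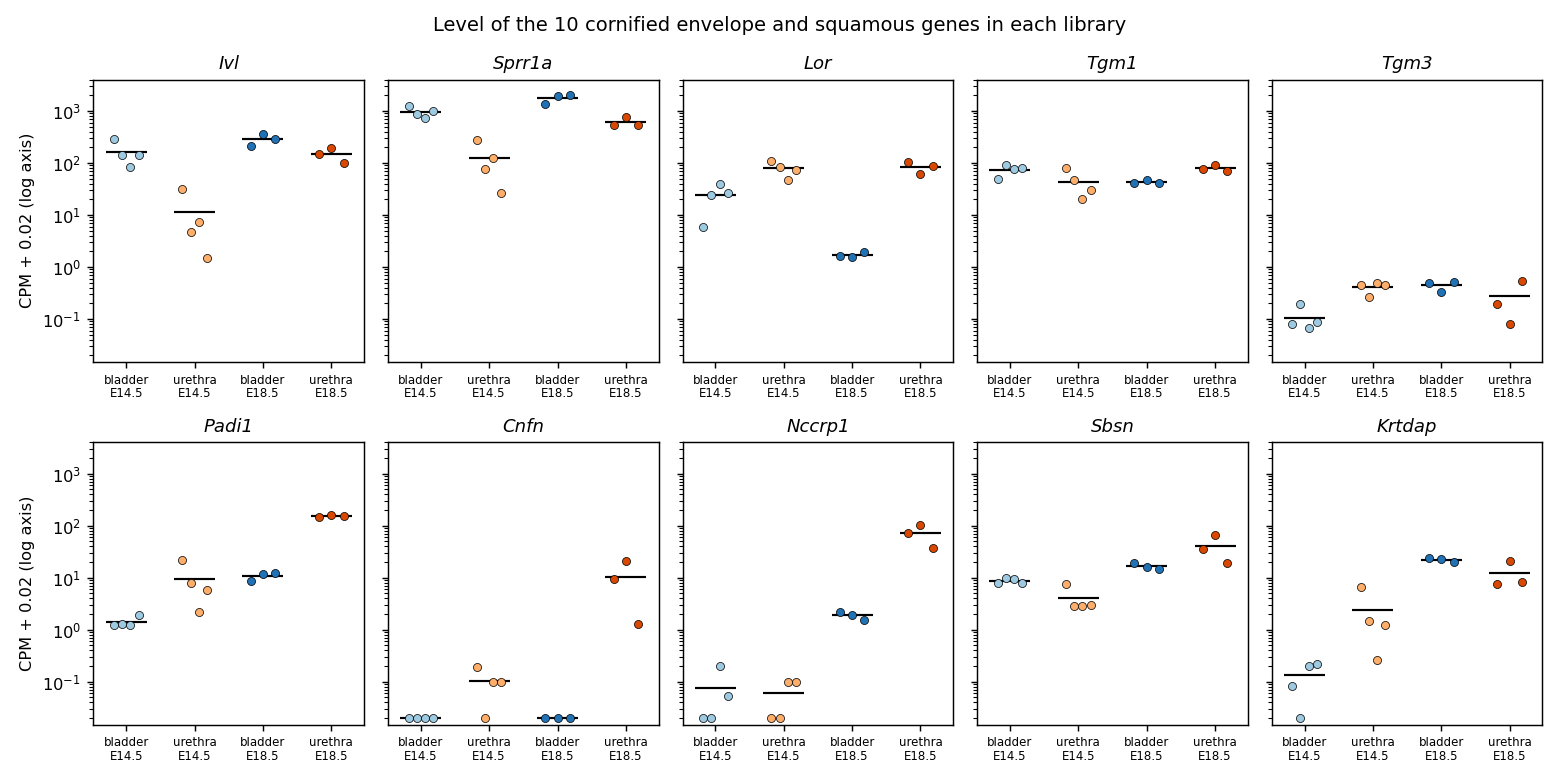
CPM (plus 0.02, on a log axis) of each of the 10 genes in every library, with 1 point per library and a bar at the group mean. Ivl and Sprr1a sit higher in bladder than in urethra at both stages, Lor and Padi1 sit higher in urethra at both, and Cnfn is at 0 in all 7 bladder libraries.

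Sprr1a carried most of the counts. This small proline-rich protein bridges other envelope proteins. It took 76.3 to 84.0% of the summed CPM of the 10 genes in the bladder libraries, 18.3 to 60.7% in the E14.5 urethra and 46.9 to 53.5% in the E18.5 urethra. Per kilobase of the deposited gene length it was also the leading gene of the 10 in each of the 4 groups, at 1205 ± 284 CPM per kb (SD, n = 4) in E14.5 bladder, 158 ± 138 (n = 4) in E14.5 urethra, 2192 ± 462 (n = 3) in E18.5 bladder and 757 ± 153 (n = 3) in E18.5 urethra. Ivl came after it per kilobase in 3 groups, and Lor in the E14.5 urethra (44.2 ± 14.7 CPM per kb, n = 4).

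Among the scaffold proteins, Sprr1a (chromosome 3, 92483952 to 92485895) stood at 1278, 869.8, 744 and 993 CPM in the 4 bladder libraries of E14.5 and at 283, 75.1, 124 and 26.2 CPM in the 4 urethral ones. The bladder libraries were all above the urethral ones, and urethral replicate 1 was the highest of its group. Of all genes tested at E14.5, 40.5% had bladder and urethral groups that did not overlap, and at E18.5 51.1%. The log2 fold change, bladder minus urethra, was 2.91 (SE 0.63, edgeR adjusted p = 0.00678), and 3.66 without urethral replicate 1 (adjusted p = 0.000897). At E18.5 Sprr1a stood at 1338, 1957 and 2005 CPM in bladder and 529, 752 and 549.8 CPM in urethra, again with no overlap, a 2.79-fold bladder excess.

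Ivl (chromosome 3, 92570902 to 92573735) encodes involucrin, an early scaffold on which the envelope is assembled. In E14.5 bladder it stood at 287, 143, 82.1 and 141 CPM, and in E14.5 urethra at 32.3, 4.67, 7.18 and 1.46 CPM. Even the lowest bladder library exceeded the highest urethral library, while the urethral libraries spread more widely than the bladder libraries. The log2 fold change was 3.82 (SE 0.87, adjusted p = 0.00858), or 5.17 without urethral replicate 1 (adjusted p = 0.000529). At E18.5 the bladder values were 212, 365 and 291 CPM and the urethral values 147, 199 and 102 CPM. These groups did not overlap either, but the excess was smaller, at 1.86-fold.

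Lor (chromosome 3, 92080271 to 92083142) encodes loricrin, the main protein by mass of the epidermal envelope. It ran the other way. In E14.5 bladder it stood at 5.96, 24.4, 39.2 and 26.4 CPM and in E14.5 urethra at 111, 82.3, 46.9 and 74.9 CPM, with all urethral libraries above all bladder ones. The log2 fold change was -1.74 (SE 0.50, adjusted p = 0.0217). Leaving out bladder replicate 4 ended the call (-1.78, adjusted p = 0.0511). At E18.5 bladder Lor had dropped to 1.62, 1.56 and 1.97 CPM, while the urethra stood at 105, 61.4 and 86.9 CPM, 51.3-fold higher. The urethral values of the 2 stages overlapped, while all E18.5 bladder values lay below all E14.5 ones. Between the stages, 46.2% of all genes tested did not overlap in bladder and 38.5% in urethra.

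Transglutaminases are the crosslinking enzymes of the envelope. Tgm1 (chromosome 14, 55700009 to 55713926) encodes the membrane-bound transglutaminase of keratinocytes. It stood at 48.6, 90.7, 75.3 and 79.3 CPM in E14.5 bladder and 79.0, 46.5, 20.6 and 30.4 CPM in E14.5 urethra. The groups overlapped through urethral replicate 1, and the log2 fold change of 0.71 did not pass (SE 0.38, adjusted p = 0.163). Without that library it was 1.15 and passed (adjusted p = 0.014). At E18.5 the order was the opposite, with 41.1, 47.0 and 41.5 CPM in bladder below 78.2, 93.2 and 70.6 CPM in urethra, a 1.94-fold urethral excess with no overlap. Tgm3 (chromosome 2, 130012349 to 130050399), the transglutaminase of epidermis and hair, was close to background. Its highest value in any library was 0.531 CPM, and its 4 groups held 11, 39, 28 and 25 counts in all (E14.5 bladder, E14.5 urethra, E18.5 bladder and E18.5 urethra). At E14.5 Tgm3 averaged 0.0865 ± 0.0569 CPM in the bladder libraries against 0.4001 ± 0.105 CPM in the urethral ones (n = 4 each), a 4.63-fold urethral excess without overlap, but it did not pass the filter on low counts. The E18.5 groups of Tgm3 overlapped, and its bladder to urethra ratio there was 1.54, or 1.86 on the log2 scale without urethral replicate 3 against 0.63 with it.

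Padi1 (chromosome 4, 140812983 to 140845778), a deiminase that citrullinates keratins, was a urethral gene. In E14.5 bladder it stood at 1.24, 1.25, 1.196 and 1.92 CPM and in E14.5 urethra at 22.0, 8.03, 2.21 and 5.67 CPM. All urethral libraries lay above all bladder libraries, replicate 3 only just. The log2 fold change was -2.78 (SE 0.64, adjusted p = 0.00865), or -1.94 without urethral replicate 1 (adjusted p = 0.0069). At E18.5 the bladder stood at 8.75, 11.6 and 12.2 CPM and the urethra at 146, 164 and 151 CPM, 14.7-fold higher. Its exons overlap those of Gm13032 on the opposite strand, and those of Tgm1 overlap Gm49067 on the opposite strand, so reads of these pairs may be mixed if counting ignored strand.

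Cnfn (chromosome 7, 25367620 to 25369724) encodes cornifelin, a small component of the envelope. It had 0 counts in all 7 bladder libraries, which at 3 counts over a group allows up to 0.0252 CPM at E14.5 and 0.0444 CPM at E18.5. In the urethra it stood at 0.176, 0, 0.0803 and 0.0788 CPM at E14.5 and at 9.31, 20.7 and 1.29 CPM at E18.5. The E18.5 urethral libraries were all above the E14.5 ones, with a wide spread among them. Against the limit of 3 counts, E18.5 urethra was at least 235-fold higher than E18.5 bladder. This limit was 119-fold without urethral replicate 2 and 144-fold without bladder replicate 2.

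Nccrp1 (chromosome 7, 28543596 to 28547254), an F-box related gene expressed in squamous epithelia, was near 0 at E14.5, with 5 counts in the bladder libraries together and 4 in the urethral ones. At E18.5 it stood at 2.19, 1.903 and 1.53 CPM in bladder and at 70.9, 105 and 37.5 CPM in urethra, where it was 39.4-fold higher. No bladder library came near the lowest urethral library.

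Sbsn and Krtdap are neighbours on chromosome 7 (30751471 to 30756134 and 30787896 to 30791097) and lie on either side of Dmkn, within 39.6 kb. Sbsn encodes suprabasin, a secreted protein of suprabasal cells. It stood at 7.88, 9.70, 9.62 and 7.87 CPM in E14.5 bladder and 7.57, 2.83, 2.81 and 2.99 CPM in E14.5 urethra. All bladder libraries were higher, urethral replicate 1 coming close to the lowest of them, and the log2 fold change was 1.09 (SE 0.35, adjusted p = 0.0324). This call was weak. It was lost on leaving out any library except urethral replicate 1, with adjusted p between 0.0531 and 0.0858, and under scaling on the pan-epithelial genes (0.28, adjusted p = 0.437). At E18.5 the direction was turned, with 19.1, 16.1 and 14.5 CPM in bladder and 35.5, 67.8 and 19.6 CPM in urethra, a 2.57-fold urethral excess with no overlap. Exons of Sbsn overlap those of Tmem147os on the same strand.

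Krtdap encodes a keratinocyte differentiation-associated secreted protein. In E14.5 bladder it stood at 0.0620, 0, 0.184 and 0.202 CPM, below all E14.5 urethral libraries (6.73, 1.48, 0.241 and 1.22 CPM). It did not pass the filter on low counts for the E14.5 test. At E18.5 the bladder values of 23.5, 23.1 and 19.7 CPM were close to each other, and the urethral values were 7.43, 21.03 and 8.16 CPM. The groups overlapped through urethral replicate 2, and the 1.74-fold bladder excess on a log2 scale was 0.80, or 1.43 without that library. Dmkn, the gene between them, encodes dermokine of the upper epidermal layers. Like Sbsn it was higher in bladder at E14.5 (10.1 ± 1.198 against 2.62 ± 2.52 CPM, n = 4 each, log2 fold change 1.92, adjusted p = 0.0302) and higher in urethra at E18.5 (13.2 against 35.0 CPM). The E14.5 call of Dmkn was lost without bladder replicate 1, 2 or 4 or urethral replicate 2 or 3 (adjusted p up to 0.0809), and the value was 2.82 without urethral replicate 1.

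For the tissue comparison at E14.5, 6 of the 10 genes passed the filter on low counts. Of these, Ivl, Sprr1a and Sbsn were higher in bladder, Lor and Padi1 were higher in urethra, and Tgm1 did not pass. Of all 16697 genes tested, 44.0% were called (23.1% higher in bladder and 20.9% higher in urethra), so calls were common in this comparison and the count of 5 in 6 says little by itself. Tgm3, Krtdap, Cnfn and Nccrp1 were not tested there. The Tgm3 and Krtdap groups did not overlap, with urethra higher, and those of Cnfn and Nccrp1 did. The median log2 fold change was 0.90 over the 6 genes and -0.035 over all genes. Scaled on the pan-epithelial genes, which moved the all-gene median to -1.02, Ivl stood at 3.22, Sprr1a at 2.16, Lor at -2.62, Padi1 at -3.45 and Tgm1 at -0.087.

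For E18.5, described without a test, 6 genes had all urethral libraries above all bladder libraries (Lor, Cnfn, Tgm1, Sbsn, Nccrp1 and Padi1), 2 had all bladder libraries above (Ivl and Sprr1a), and Tgm3 and Krtdap overlapped. Among all 17513 genes tested 51.1% had groups that did not overlap and 37.9% were called, 19.3% higher in bladder and 18.6% higher in urethra. The median log2 fold change was -0.96 over 9 of the genes, -1.16 with Cnfn placed at its limit, and -0.026 over all genes. The mesenchyme sums of the E18.5 bladder libraries were several times those of the urethral libraries, as given above. With the mean level of the mesenchyme markers as a covariate the log2 fold changes were -4.32 for Lor, -6.07 for Nccrp1, -3.25 for Padi1, -2.17 for Sbsn and 2.12 for Sprr1a, while Krtdap went to -0.24. Tissue and this covariate nearly coincide at E18.5, so these values carry little weight. The plot of tissue differences sets both stages side by side.

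**Figure D2:**
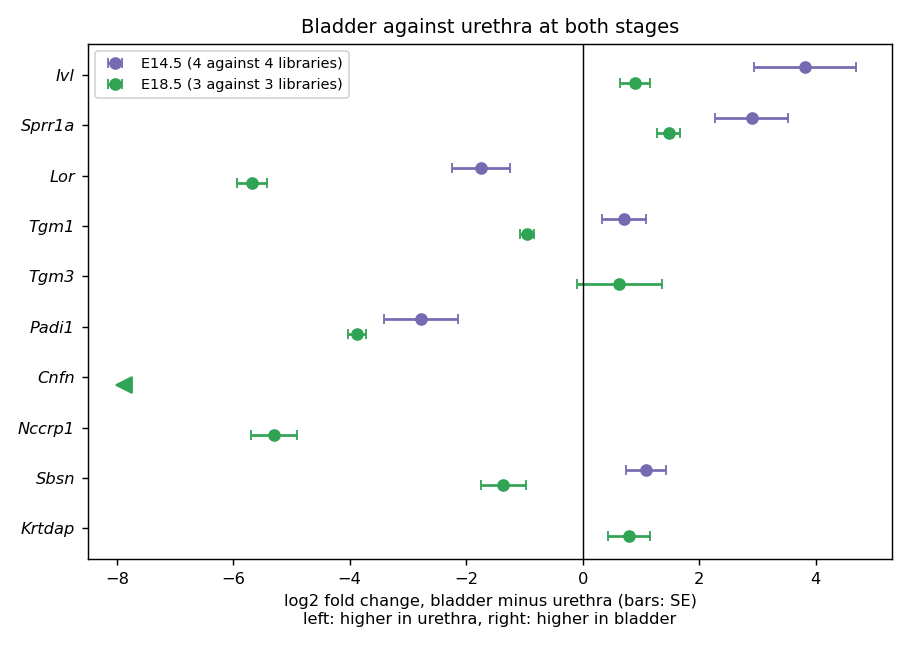
Log2 fold change of bladder minus urethra for each gene at E14.5 (4 against 4 libraries) and E18.5 (3 against 3 libraries), with bars of 1 SE. The triangle marks the limit for Cnfn, which has no bladder count. Ivl and Sprr1a lie to the right at both stages, Lor and Padi1 to the left at both, and Tgm1 and Sbsn change side.

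Between E14.5 and E18.5 the bladder gained Krtdap, Nccrp1, Padi1 and Tgm3 and lost Lor. These stage tests use the E18.5 libraries that were in view when the genes were chosen, and the stage and tissue comparisons share libraries. Tgm3, Krtdap and Nccrp1 did not pass the filter on low counts at E14.5 and entered this fit only with the E18.5 libraries added. For Nccrp1, near 0 at E14.5, a rise was thus favoured in advance, and its adjusted p carries little weight. Krtdap rose most, by 7.67 on the log2 scale (SE 1.02, edgeR adjusted p = 0.000108), from 0.112 ± 0.0971 CPM (n = 4) to 22.1 ± 2.11 CPM (n = 3). Nccrp1 rose by 5.30 (SE 0.71, adjusted p = 0.000108), or 6.98 without E14.5 bladder replicate 3, and Padi1 by 2.95 (SE 0.55, adjusted p = 0.00101). Tgm3 rose by 2.17 at very low levels (adjusted p = 0.0185), a call lost without E18.5 bladder replicate 1 (0.0576) or 3 (0.0567). Lor fell by 3.80 (SE 0.56, adjusted p = 0.000202), and its E18.5 values were all below its E14.5 values. Of the 9 genes with a value, 4 rose, 1 fell and 4 did not pass (Sprr1a 0.86, Ivl 0.82, Sbsn 0.92 and Tgm1 -0.77, adjusted p = 0.212, 0.372, 0.0795 and 0.101), where 40.3% of all 18286 genes were called. Their median log2 change was 0.92, against -0.0046 over all genes. The bladder mesenchyme sum rose over the same interval, from 1187 to 4868 CPM at E14.5 to 19970 to 30580 CPM at E18.5. With the mesenchyme covariate the bladder calls of Krtdap, Padi1 and Lor held, those of Nccrp1 (2.22) and Tgm3 (3.29) were lost, and Tgm1 went to 0.46. Stage and this covariate nearly coincide in bladder, so these values carry little weight. Under pan-epithelial scaling Sbsn (1.47, adjusted p = 0.00354) and Sprr1a (1.375, adjusted p = 0.0151) passed as well.

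In the urethra 7 of the 10 genes rose, and Tgm1, Lor and Tgm3 did not pass. Of all genes, 33.0% were called and 17.3% rose. Cnfn and Nccrp1, near 0 at E14.5, passed the filter on low counts only through E18.5 libraries. A rise was thus favoured in advance for both, and their adjusted p carries little weight. Nccrp1 rose by 10.61 (SE 0.67, adjusted p = 4.18e-06), from 4 counts in 4 libraries to 71.3 ± 34.0 CPM (n = 3). Cnfn rose by 6.90 (SE 1.08, adjusted p = 0.00243), or 7.49 without E14.5 replicate 1 and 5.96 without E18.5 replicate 2. Padi1 rose by 4.03 (SE 0.52, adjusted p = 0.000261), Ivl by 3.72 (SE 0.75, adjusted p = 0.00284), Sbsn by 3.34 (SE 0.41, adjusted p = 0.000222) and Sprr1a by 2.26 (SE 0.54, adjusted p = 0.00672). Without E14.5 replicate 1, Padi1 rose by 4.86, Ivl by 5.07 and Sprr1a by 3.02. The E18.5 urethral values of these 6 genes, and those of Krtdap, were all above their E14.5 values. Between the stages in urethra, 38.5% of all genes tested did not overlap. Krtdap rose by 2.35 (SE 0.76, adjusted p = 0.031), 3.64 without E14.5 replicate 1. The Krtdap call was lost without E14.5 replicate 2 (adjusted p = 0.0868) or 4 (0.0839) or E18.5 replicate 2 (1.72, adjusted p = 0.156). For Tgm1 the change was 0.87 (adjusted p = 0.0667, and 0.0464 by DESeq2), or 1.31 and past the threshold without E14.5 replicate 1 (adjusted p = 0.00204), for Lor 0.10 (0.882), and for Tgm3 -0.62 (0.458) or -1.80 without E18.5 replicate 3. The median log2 change of the 10 genes was 2.84, against 0.001 over all genes. Over the same interval 5 of 7 pan-epithelial genes rose in urethra. Their sum was 1656 to 3659 CPM at E14.5 and 3573 to 4170 CPM at E18.5. Scaled on these genes, which moved the all-gene median to -0.84, Lor stood at -0.64. Over all alternatives except leaving out a library, the lowest values of the 7 rising genes ran from 1.66 (Sprr1a) to 9.855 (Nccrp1). What part the sum had in the changes of the 10 genes was not tested further.

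**Figure D3:**
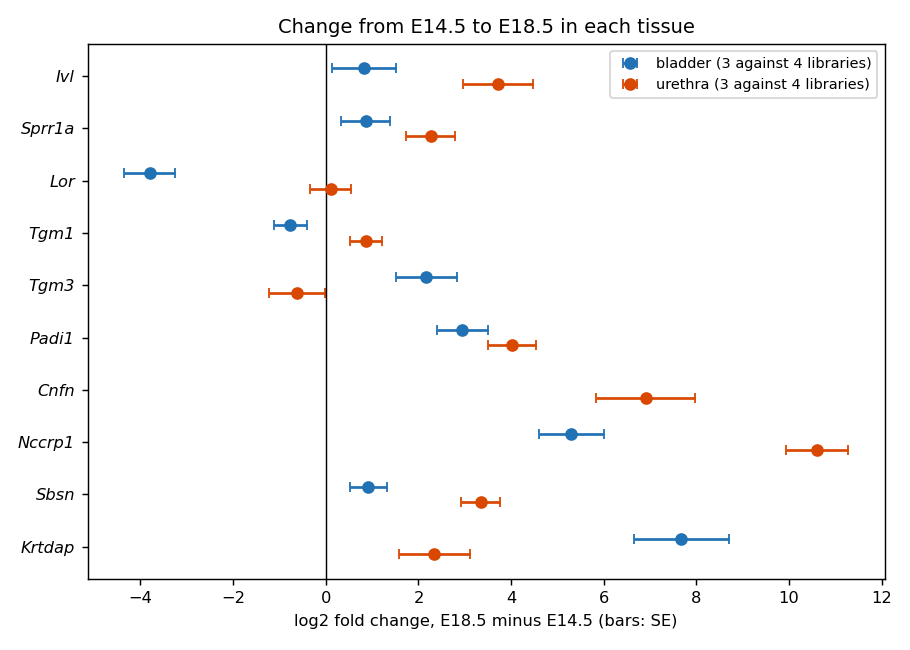
Log2 fold change from E14.5 to E18.5 in bladder and in urethra (3 against 4 libraries each), with bars of 1 SE. Krtdap rises more in bladder, Nccrp1 and Sbsn rise more in urethra, and Lor falls in bladder and stays near 0 in urethra. Cnfn has no bladder point because it has no bladder count at either stage.

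Whether bladder and urethra changed differently over these days was measured as an interaction, the bladder change minus the urethral change. This value is the E18.5 tissue difference minus the E14.5 one, so it holds the difference that was known when the genes were chosen. For the 10 genes it is therefore a description without a test, and nothing is read from its count (6 of the 9 genes with a value had an adjusted p under 0.05, as did 22.9% of all genes). Krtdap (5.33, SE 1.28) and Tgm3 (2.78, SE 0.89) moved further up in bladder. Lor (-3.91, SE 0.69), Sbsn (-2.42, SE 0.57), Nccrp1 (-5.31, SE 1.61), Tgm1 (-1.64, SE 0.49), Ivl (-2.89), Sprr1a (-1.40) and Padi1 (-1.08) were on the urethral side. Without E14.5 urethral replicate 1 the values were 4.04 for Krtdap, -4.25 for Ivl, -2.16 for Sprr1a and -1.91 for Padi1. Krtdap stood at 5.99 without E18.5 urethral replicate 2, Tgm3 at 3.995 without E18.5 urethral replicate 3, and Nccrp1, which has few E14.5 counts, at -3.63 without E14.5 bladder replicate 3. Scaled on the pan-epithelial genes, which moved the all-gene median to 1.36, Tgm1 stood at -0.45, Sbsn at -1.19 and Lor at -2.65. In the same interaction 14 of 15 mesenchyme markers were higher and 5 of 7 pan-epithelial genes lower, where 12.2% of all genes were higher and 10.7% lower. With the mesenchyme covariate the values were -3.57 for Lor, -1.80 for Sbsn, 8.34 for Krtdap, -0.42 for Tgm1 and 1.29 for Padi1, and none of the 10 genes had an adjusted p under 0.05.

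Relatives of the 3 enzyme and scaffold families did not all follow the genes above. In the deiminase family Padi3, which acts on hair follicle and epidermal proteins, was urethral like Padi1. It stood at 1.21, 0.484, 0.690 and 0.605 CPM in E14.5 bladder and 12.98, 7.25, 7.38 and 7.95 CPM in E14.5 urethra (log2 fold change -3.59, SE 0.36, adjusted p = 0.000409), and at 5.28, 6.17 and 4.38 against 20.7, 31.9 and 23.3 CPM at E18.5 (-2.32, SE 0.21, adjusted p = 0.000126). Neither stage showed overlap. Padi4, a deiminase of blood cells, was higher in urethra at E18.5 (-3.35, adjusted p = 0.000782) and did not pass at E14.5 (-2.25, adjusted p = 0.0857), though it passed there by DESeq2 (adjusted p = 0.0295), with all 14 libraries in the fit (0.0367) and under pan-epithelial scaling (0.00826). Padi2 did not pass at either stage, except at E14.5 under pan-epithelial scaling (-2.35, adjusted p = 0.0133).

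Among the transglutaminases, Tgm5, an epidermal enzyme, was higher in E18.5 urethra (0.469 ± 0.211 against 3.30 ± 0.638 CPM, n = 3 each, -2.86, adjusted p = 0.000967). Tgm2, the widely expressed tissue enzyme, and F13a1, the coagulation factor XIII subunit found in macrophages and connective tissue, were higher in E18.5 bladder. Tgm2 stood at 205, 209 and 131 CPM in bladder and 35.3, 38.2 and 51.2 CPM in urethra (2.07, adjusted p = 0.000175), and F13a1 at 219.5, 214 and 157 against 11.5, 14.2 and 18.1 CPM (3.69, adjusted p = 1.26e-05). These 2 rose together with the mesenchyme sum (12 of 15 markers higher in E18.5 bladder) and the immune sum (137 to 188 CPM against 49.5 to 57.0 CPM), whose part in their difference was not tested. At E14.5 these 3 transglutaminase genes did not pass (adjusted p = 0.138 for Tgm2, 0.698 for Tgm5 and 0.895 for F13a1). Tgm4, Tgm6 and Tgm7 were at 0.281 CPM or less in each library.

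In the small proline-rich family, Sprr2a3 was higher in bladder at E14.5 and Sprr3 was higher in urethra at E18.5. Sprr2a3 stood at 46.8, 20.3, 16.4 and 20.9 CPM in E14.5 bladder and 6.73, 0.861, 0.803 and 0.394 CPM in E14.5 urethra (log2 fold change 3.56, SE 0.86, adjusted p = 0.0113), or 5.22 without urethral replicate 1. At E18.5 it stood at 68.1, 423 and 175 CPM in bladder and 26.4, 130.1 and 43.2 CPM in urethra, groups that overlapped, and did not pass (1.68, adjusted p = 0.0963), with values from 0.85 (adjusted p = 0.361) without bladder replicate 2 to 2.59 (adjusted p = 0.0364) without urethral replicate 2. It also passed without bladder replicate 1 (2.14, adjusted p = 0.0361), with no filter (0.0115), under pan-epithelial scaling (0.0121) and with the replicate block (0.000932). It rose with stage in bladder (3.09, adjusted p = 0.00837) and in urethra (4.95, adjusted p = 0.00182). Without E18.5 bladder replicate 2 the bladder call was lost (adjusted p = 0.0566), and the urethral rise was 6.60 without E14.5 replicate 1 and 4.04 without E18.5 replicate 2. Its near-identical copies Sprr2a1 and Sprr2a2 may share reads with it, so the split among the 3 is uncertain. Sprr3, known from oesophagus and other mucosal squamous epithelia, was higher in E18.5 urethra (0.809, 2.13 and 0.984 CPM against 7.26, 13.9 and 3.58 CPM, -2.70, adjusted p = 0.00575, or -2.10 without urethral replicate 2). This call was lost with all 14 libraries in the fit (adjusted p = 0.0637). At E18.5 Sprr1a and Sprr3, of the same family and cluster, thus lay on opposite sides. The interval from Lor to Ivl on chromosome 3 spans 493.5 kb and holds 21 protein-coding genes, of which 10 exceeded 1 CPM in some group.

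**Figure D4:**
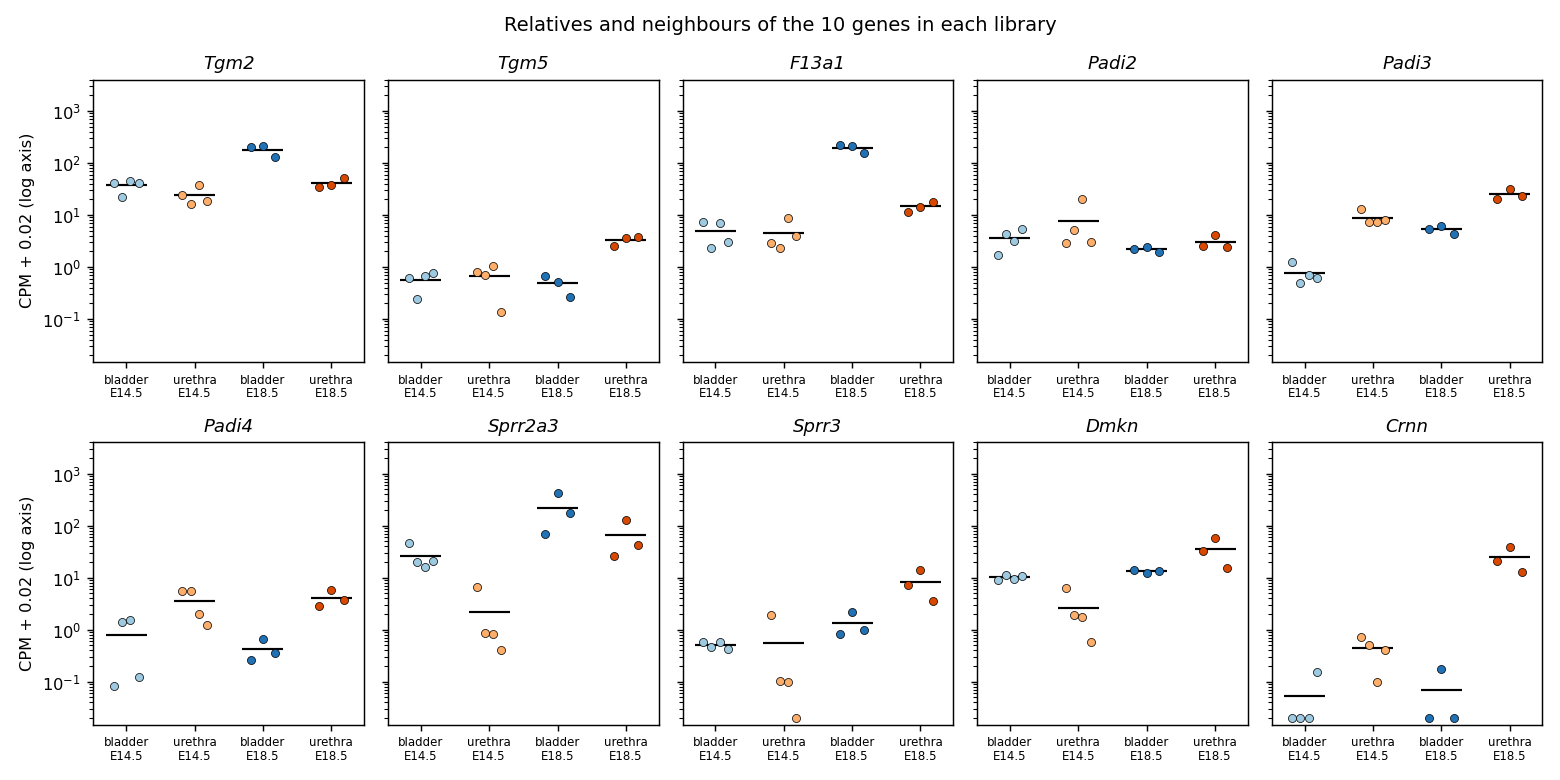
CPM (plus 0.02, on a log axis) of 10 relatives and neighbours of the genes above in every library, with 1 point per library and a bar at the group mean. Padi3 sits higher in urethra at both stages, F13a1 and Tgm2 are highest in E18.5 bladder, and Crnn is above 10 CPM in the 3 E18.5 urethral libraries alone.

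Other proteins of the envelope shared the stage rise of the urethra. This and the other gene lists were chosen with earlier results of these data known, so their counts are read as descriptions. Of 27 listed, 18 were tested by stage, and 15 rose in urethra, while 2 rose in bladder (Cysrt1 and S100a10). The shares of all genes that rose were 17.3% in urethra and 19.9% in bladder. The median log2 change was 1.98 in urethra and 0.038 in bladder. The difference between tissues in this change passed for 10 of 18, all on the urethral side, among them Tchh, encoding trichohyalin (-2.41, adjusted p = 0.00295), Scel, encoding sciellin (-3.75, adjusted p = 0.0109) and Dmkn (-3.36, adjusted p = 0.0114). The share of all genes that passed on the urethral side was 10.7%. Without E14.5 urethral replicate 1 the values were -4.83 for Scel and -4.26 for Dmkn. At E14.5 7 of 15 were higher in bladder and the other 8 did not pass, a called share near the 44.0% of all genes. The 7 were led by Evpl, encoding envoplakin of the inner envelope (526 ± 35.6 against 163 ± 96.3 CPM, n = 4 each, 1.66, adjusted p = 0.00531). At E18.5 10 of 18 were higher in urethra and 1, the matrix protein gene Ecm1 (1.33, adjusted p = 0.00309), in bladder. The shares of all genes at E18.5 were 18.6% higher in urethra and 19.3% higher in bladder. The Ecm1 call was lost with all 14 libraries in the fit (adjusted p = 0.165), and its value was 0.035 with the mesenchyme covariate. Crnn, encoding cornulin of oesophageal squamous cells, had 4 counts in E18.5 bladder and stood at 20.9, 39.8 and 13 CPM in E18.5 urethra (adjusted p = 9.64e-05). Crnn passed the filter on low counts through the urethral libraries alone, so this direction was favoured in advance. Scel was 18.1-fold higher in E18.5 urethra (4.10 ± 1.82 against 70.9 ± 18.49 CPM, n = 3 each, adjusted p = 6.69e-05). In these tissue comparisons the all-gene medians were -0.035 and -0.026.

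The keratins of suprabasal and mucosal squamous cells were urethral in the main. The shares of all genes higher in urethra were 18.6% at E18.5 and 20.9% at E14.5. At E18.5 all 13 tested of 15 listed were higher in urethra (median log2 fold change -3.74), among them Krt4 (353 ± 39.4 against 3167 ± 307 CPM, n = 3 each, -3.22, adjusted p = 7.02e-06) and its usual partner Krt13 (10.8 ± 6.38 against 776 ± 305 CPM, -6.21, adjusted p = 5.36e-05). At E14.5 6 of 11 were higher in urethra, such as Krt17 (0.988 ± 0.778 against 126 ± 79.7 CPM, n = 4 each, -7.04, adjusted p = 0.000528, or -7.68 without bladder replicate 1), and 1, Krt78 (1.71, adjusted p = 0.0283), in bladder. The Krt78 value was 2.56 without urethral replicate 1, and the call was lost without any of 5 other libraries, bladder replicates 1 and 2 and urethral replicates 2, 3 and 4 (adjusted p up to 0.0764). Krt13 rose with stage in both tissues, by 8.93 in urethra (adjusted p = 9.07e-05, 11.16 without E14.5 replicate 1) and 3.55 in bladder (adjusted p = 0.00336, 2.93 without E18.5 replicate 2). At E18.5 Ivl and Sprr1a lay on the bladder side and all 13 of these keratins on the urethral side. Both sets were chosen with earlier results of these data known. Of these keratins, Krt2 averaged 0 CPM in E18.5 bladder and passed the filter through the urethral libraries alone. Among 9 superficial urothelial genes 7 were higher in E18.5 bladder, as were all 8 tested at E14.5, and Cyp2f2 was higher in E18.5 urethra (-5.66, adjusted p = 0.000195). The shares of all genes higher in bladder were 19.3% at E18.5 and 23.1% at E14.5.

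Enzymes that make the lipid part of the barrier were divided. Of 16 tested at E18.5, 6 were higher in bladder and 7 in urethra. Among all genes at E18.5, 19.3% were higher in bladder and 18.6% in urethra. The urethral ones included Pnpla1, an acylceramide synthase (0.231 ± 0.0642 against 6.80 ± 1.11 CPM, n = 3 each, -4.89, adjusted p = 3.64e-05) and the dehydrogenase gene Sdr9c7 (-4.01, adjusted p = 0.000177), and the bladder ones Fads3, a sphingoid base desaturase (1.88, adjusted p = 0.000571). Pnpla1 passed the filter on low counts through the urethral libraries alone, so its direction was favoured in advance. At E14.5 5 of 11 were higher in bladder and the other 6 did not pass, a called share near the 44.0% of all genes. The 5 were led by the fatty acid elongase gene Elovl1 (1.57, adjusted p = 0.000638). Among 12 tested genes of envelope proteolysis, 7 were higher in E18.5 urethra and 3 in bladder. Asprv1, the protease that cuts filaggrin, averaged 2.11 ± 2.01 CPM in the bladder libraries against 385 ± 191 CPM in the urethral ones (-7.51, adjusted p = 9.79e-05, or -8.66 without bladder replicate 2), and the kallikrein gene Klk13 at 0.550 ± 0.282 and 31.7 ± 11.3 CPM (-5.85, adjusted p = 3.8e-05), while the lysosomal protease gene Ctsl was higher in bladder (0.70, adjusted p = 0.00317). Of 7 desmosome genes of upper layers tested, 6 were higher in E18.5 urethra, led by Pkp1, encoding plakophilin 1 (25.5 ± 2.86 against 419 ± 53.4 CPM, n = 3 each, -4.10, adjusted p = 5.4e-06).

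Regulators of squamous differentiation also leaned to the urethra at E18.5, with 16 of 25 higher there and 3 in bladder (median log2 fold change -0.87). Among all genes these shares were 18.6% and 19.3%. Tfap2a (1.42 ± 0.180 against 60.9 ± 5.59 CPM, n = 3 each, -5.49, adjusted p = 3.88e-06), Barx2 (-4.03, adjusted p = 5.4e-06) and Sox2 (-4.10, adjusted p = 1.03e-05) were among them, and the bZIP factor gene Maf was higher in bladder (2.07, adjusted p = 6.33e-05). At E14.5 8 of 25 were higher in urethra and 3 in bladder, the same share called as the 44.0% of all genes. Grhl3 was among the 3, a grainyhead factor needed for umbrella cells and epidermis (382 ± 74.0 against 190 ± 76.2 CPM, n = 4 each, 0.98, adjusted p = 0.0197). The Grhl3 call was lost without bladder replicate 2 or 4 or urethral replicate 4 (adjusted p up to 0.0572) and under scaling on the pan-epithelial genes (0.12). Klf4, a factor of terminal differentiation, rose in both tissues and rose more in bladder (2.82, adjusted p = 1.91e-07, against 0.89, adjusted p = 0.000391, with a difference of 1.93, adjusted p = 9.13e-05). The urethral rise of Klf4 was lost under pan-epithelial scaling (0.078, adjusted p = 0.779). Elf3 rose in urethra (2.198, adjusted p = 0.00101) and its change differed between tissues (-2.75, adjusted p = 0.00377). Without E14.5 urethral replicate 1 these values of Elf3 were 2.83 and -3.38.

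Late cornified envelope genes other than Lce6a were at or near 0. Of 21 late cornified envelope genes, 14 had 0 counts in all 14 libraries, and 20 had at most 3 counts in any library. The exception was Lce6a, which was a bladder gene, with 2.92, 2.19, 2.30 and 2.22 CPM in E14.5 bladder and 0.176, 0, 0.161 and 0 CPM in E14.5 urethra (4.76, adjusted p = 0.00151, or 5.35 without urethral replicate 1). At that stage it passed the filter on low counts through the bladder libraries alone, so this direction was favoured in advance. At E18.5 it was higher in bladder as well (2.22 ± 0.723 against 0.867 ± 0.141 CPM, n = 3 each, 1.31, adjusted p = 0.0233), but did not pass on leaving out bladder replicate 3 (adjusted p = 0.0789) or any urethral library (0.0532 to 0.0702), with all 14 libraries in the fit (0.0701) or with the replicate block (0.0671). Flg, which encodes filaggrin, was at 0 in each group. The 8 epidermis-specific markers, Flg, Krt1 and Krt10 among them, summed to 50.1 to 80.2 CPM in E18.5 urethra, 17.8 to 86.0 CPM in E14.5 urethra, 10.3 to 11.6 CPM in E14.5 bladder and 8.79 to 10.9 CPM in E18.5 bladder. The 4 of them tested (Krt1, Krt10, Casp14 and Krt77) were all higher in urethra at both stages. The shares of all genes higher in urethra were 20.9% at E14.5 and 18.6% at E18.5. Of what the name cornified envelope and squamous genes covers, the scaffold and suprabasal members, Tgm1 and Padi1 were detected at the levels given above, while Tgm3 and the late envelope genes other than Lce6a were at or near 0.

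The genes closest in pattern differed from member to member. Likeness was measured as the root mean square difference of log2 CPM, each gene centred on its own mean over the 14 libraries, among 12292 genes. This is a description over libraries that share tissue and stage and may share litters. Ivl lay closest to Mal (0.47), Slc9a4 (0.59) and Syt8 (0.60), and Sprr1a to Dkkl1 (0.31), Plet1 (0.39) and Galnt6 (0.40). Lor lay closest to Sox2 (0.79), which followed it with 10.7, 19.0, 17.0 and 14.6 CPM in E14.5 bladder, 124, 129 and 118 CPM in 3 of the E14.5 urethral libraries and 62.5 CPM in replicate 3, 4.57, 4.61 and 4.23 CPM in E18.5 bladder and 87.1, 55.4 and 78.1 CPM in E18.5 urethra. In both genes replicate 3 was the lowest of the E14.5 urethral libraries and replicate 2 the lowest of the E18.5 ones. Padi1 lay closest to Ceacam1 (0.65), Apobr (0.71) and Krt6a (0.76), Nccrp1 to Krt13 (1.30) and Cnfn to Muc1 (1.17). Sbsn lay closest to Gsto1 (0.44), Tgm1 to Nectin4 (0.24) and Krtdap to Myh8 (1.13), a myosin gene of developing muscle. Between the 10 genes themselves the nearest pair was Ivl and Sprr1a (0.73) and the farthest Lor and Nccrp1 (4.27).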

How the data were processed

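The authors deposited whole read counts for each gene, unnormalized as far as the files show. Per the submitters' processing notes, bcl2fastq, HISAT2 2.2.1, SAMtools 1.9 and GRCm38 were used. How reads were counted (program, strand, gene annotation) is not given in the sources that were used here. Of counts from 1 to 20, 64.4 to 69.0% were even, so 3 counts may stand for fewer than 3 fragments. The positions of all 10 genes matched GENCODE M21.

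CPM used effective library sizes from TMM over the 14 libraries, log2 CPM a prior count of 2, and levels per kb the deposited gene length. Genes passing filterByExpr entered edgeR (version 4.0.16, R 4.3.3) and its quasi-likelihood test. P-values were adjusted by Benjamini-Hochberg over all of them, with a threshold of 0.05. Tissue tests used the libraries of 1 stage, and stage tests and the interaction all 14. With 0 counts in a group, folds are minimums against 3 counts over that group and cover counting error alone. The script was tested on simulated data. Replicates were litter pools, taken within each group to be separate litters, and all pairs differed by more than sampling noise (chi-square per gene 10.3 to 105.9).

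Members and 21 gene lists (250 genes) were chosen with earlier results of these data known. The lists held the 10 members, the transglutaminase, deiminase and small proline-rich families, other and late envelope proteins, barrier lipid enzymes, envelope proteolysis, keratins, basal, desmosomal and regulator genes, and superficial urothelial, pan-epithelial, mesenchyme, smooth muscle, endothelial, immune, erythroid, melanocyte and epidermal markers. The text names all members, family relatives with counts, up to 4 genes per list of smallest adjusted p plus the strongest opposite one, and the genes nearest in pattern. Where 5 or fewer genes passed, or Evpl, Crnn, Dmkn and Sox2 are followed by library, a few further names were chosen after their values were seen. Alternatives were DESeq2 1.42.0, DESeq2 size factors within edgeR, no filter, scaling on 7 pan-epithelial genes, a mesenchyme covariate, the replicate number as a block, all 14 libraries in 1 fit, and leaving out each library.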

Additional observations from a re-analysis of the deposited data

Results flagged for a closer look

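In 3 groups of 4 libraries a library lay far from the other 3 for its gap (Dixon's test at 95%, which chance meets in about 1 of 20 groups). Sbsn in E14.5 urethra replicate 1 stood at 7.57 CPM, where the others lay between 2.81 and 2.99 CPM. Padi1 in E14.5 bladder replicate 4 stood at 1.92 CPM, above 1.196 to 1.25 CPM. Tgm3 in E14.5 bladder replicate 2 stood at 0.171 CPM, above 0.0460 to 0.0672 CPM, a matter of a few counts.

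For 6 genes the bladder change minus the urethral change had an adjusted p under 0.05 in the interaction fit of edgeR. That contrast contains the E18.5 tissue difference known when the genes were chosen, so the values are a description and nothing is read from their count. Krtdap, Tgm3 and Nccrp1 did not pass the filter on low counts at E14.5. On the log2 scale the difference, bladder change minus urethral change, was 5.33 for Krtdap, 2.78 for Tgm3, -1.64 for Tgm1, -2.42 for Sbsn, -3.91 for Lor and -5.31 for Nccrp1. None of the 6 kept such a p with the mesenchyme covariate.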

How the results depend on the processing

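Across 631 values of the 10 genes under alternatives, 551 kept their direction and side of the threshold, 49 lost their call, 13 gained it, 11 moved by more than the spread and 7 turned direction. The 631 include interaction values, for which the side of the threshold is a description and not a test. DESeq2 size factors within edgeR changed none of 43 values, and all 14 libraries in 1 fit changed none of 15. Of 1379 values of other named genes 1226 kept direction and side, 126 lost their call (57 with the mesenchyme covariate), 17 gained it and 10 turned. The fit of all 14 libraries ended the E18.5 calls of Ecm1, Sprr3 and Lce6a. DESeq2 gave no adjusted p for a few genes, which have no value there.

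Scaling on the pan-epithelial genes moved the all-gene median to -1.02 (E14.5), 0.395 (E18.5), 0.527 (bladder stage), -0.84 (urethral stage) and 1.36 (interaction). Called genes split into 517 higher and 11415 lower of 11932 at E14.5 (3860 and 3491 of 7351 before), 5780 and 1317 at E18.5 (3373 and 3262 before), 5742 and 302 for bladder stage (3642 and 3723 before), 983 and 9840 of 10823 for urethral stage (3156 and 2875 before), and 12881 and 273 of 13154 for the interaction (2233 and 1950 before). It turned Tgm1 (-0.087), Cstb (-0.17), Tgm2 (-0.42) and F13a1 (-0.99) at E14.5 and Lor for urethral stage (-0.64), and ended the E14.5 call of Sbsn. The interaction value of Tgm1, a description, was -0.45 under this scaling.

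The mesenchyme covariate left 2949, 2, 872 and 64 called genes at E14.5, E18.5, for bladder stage and for the interaction. For urethral stage 6573 genes were called with it, against 6031 before. Where the covariate nearly coincides with the contrast, as at E18.5 and for bladder stage, these counts carry little weight. Of the 10 genes it left 3 called at E14.5 and 3 for bladder stage. It turned Tgm5 at E14.5 (0.15), Krtdap (-0.24) and Sprr2a2 (-0.032) at E18.5, Tgm1 for bladder stage (0.46) and Padi1 for the interaction (1.29), and ended the E14.5 calls of Sbsn and Lor (adjusted p = 0.0863).

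Leaving out each library gave 3 to 6 of the 10 genes called at E14.5, and 3 to 9 for the interaction, where all genes called ranged from 2654 without E18.5 urethral replicate 1 to 5697 without E14.5 urethral replicate 1. Values near 0 turned for Lor in the urethral stage test (-0.055 without E14.5 urethral replicate 3 and -0.055 without E18.5 urethral replicate 1, with a highest value of 0.32), for Tgm5 at E14.5 (0.013 without urethral replicate 3, with a lowest value of -0.66) and for F13a1 at E14.5 (up to 0.65, but -0.19 and -0.13 without bladder replicates 1 and 3, -0.060 and -0.12 without urethral replicates 1 and 2). The cause of these changes was not tested.

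The labels do not say whether libraries with the same number share a litter, though the deposited library names count bladder and urethra in turn. The numbers were not used as pairs in the main tests, since not every same-numbered pair correlated above 0.1. So few libraries cannot exclude shared litters. The correlations were 0.15, 0.131, 0.391 and -0.104 at E14.5 and 0.138, -0.146 and -0.189 at E18.5. With the replicate number as a block 7680, 5363, 6525, 4687 and 4322 genes were called in the 5 comparisons. Among the 10 genes it ended the calls of Lor at E14.5 (adjusted p = 0.0536) and Krtdap for urethral stage (0.0544). Not every library correlated best with its own number.

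Depth limits Tgm3, E14.5 Nccrp1 and Cnfn outside the E18.5 urethra, which rest on very few counts, and group sizes of 3 or 4 litters limit all tests.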

Other observations

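Smooth muscle, endothelial, immune and erythroid genes were for the most part higher in E18.5 bladder than in E18.5 urethra, as were 19.3% of all genes. All 8 smooth muscle markers were higher in bladder, with summed levels of 4986 to 13040 CPM against 1017 to 2312 CPM, as were 8 of 8 endothelial markers (266 to 390 CPM against 56.3 to 91.3 CPM) and 8 of 10 immune markers. At E14.5 the smooth muscle sum ranged from 260 to 599 CPM in the bladder libraries and from 464 to 672 CPM in the urethral ones. Of 6 erythroid markers tested, 5 were higher in bladder, and the list summed to 878.0 to 1292 CPM in E18.5 bladder and 238 to 516 CPM in E18.5 urethra. The melanocyte list overlapped between the tissues at E18.5 (8.46 to 11.5 CPM in bladder, 8.80 to 16.7 CPM in urethra). Tyr, the melanocyte enzyme gene, was at 0 in each group, so the melanocyte list, whose sum stayed at 6.66 to 16.7 CPM, rested on Pmel, Mitf and other genes that are not confined to melanocytes.

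Basal layer genes were higher in E18.5 urethra for 9 of 11, with Col17a1, encoding collagen XVII of hemidesmosomes, at 111 ± 20.4 CPM in the bladder libraries against 650.2 ± 86.5 CPM in the urethral ones (n = 3 each, edgeR adjusted p = 3.5e-05). Among all genes 18.6% were higher in E18.5 urethra. The basal sum at E18.5 ran from 4963 to 5850 CPM in the bladder libraries, below 9106 to 9389 CPM in the urethral ones. Krt14 and Krt5 rose from E14.5 to E18.5 in bladder by 7.25 and 3.12 on the log2 scale (adjusted p = 4.36e-05 and 0.00307), or 8.21 and 4.32 without E14.5 bladder replicate 1. The change of Krt14 differed between the tissues (5.64, adjusted p = 0.0033, or 6.59 without E14.5 bladder replicate 1 and 4.86 without E14.5 urethral replicate 1).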
